A study of Mus musculus with 19 samples.

Results

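Axon guidance genes encode the secreted and membrane-bound cues that steer growing nerve fibres, the receptors that read them and the proteins that carry the signal to the cytoskeleton. They were taken here as all genes in the 4 deposited tables whose Pathway annotation names axon guidance and not ECM-receptor interaction, with 1 entry for each gene. This gave 107 genes of the 4213 that any table lists, and left out 1 gene, the integrin subunit gene Itgb1. The members comprise 14 ephrin and Eph receptor genes, 16 semaphorin, plexin and neuropilin genes, 10 netrin and Slit genes with their receptors, and 67 others. The 4 genes that mark the set, Plxna2, Efna1, Efnb2 and Nrp1, were all among the members.

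The cells are P19CL6, a mouse embryonal carcinoma line that can differentiate into beating cardiomyocytes in culture, and the labels give no genotype or treatment beyond the day of sampling. RNA was collected at days 1, 4, 7, 10 and 14, with beating seen at day 14 according to the design text. Short sequence tags were counted for each gene in 3 libraries at day 1 and in 4 at each later day. The labels do not say whether these came from separate cultures. A library held on average 5807310 tags at day 1 and between 5722892 and 5959396 tags at the later days.

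Ephrins are held on the cell surface, the A class by a lipid anchor and the B class by a membrane-spanning segment, and they bind Eph receptor tyrosine kinases on neighbouring cells. Semaphorins signal through plexins, for which neuropilins serve as co-receptors of the secreted class. Netrins act through DCC-family and Unc5 receptors, and Slits through Robo receptors. In the embryo these systems are not limited to neurons. They also guide the migration of mesoderm and neural crest cells, the sorting of arteries from veins and the shaping of the heart's outflow tract.

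Risen and fallen genes are those that the authors' deposited table of a day gives as higher or lower than at day 1. Every listed gene differed at least 2-fold. The member nearest to this limit was the kinase gene Pak1 at day 10, with 38.9 TPM against 78.5 TPM at day 1. A gene that is not listed at a day has no value there. Membership itself required a listing at 1 or more days, so the counts below describe the members and support nothing by themselves. TPM are tags per 1000000 tags, and since each transcript gives its tags at a fixed site, they do not scale with gene length. Each level is the mean of a day's libraries, as the authors computed it. The spread between libraries cannot be computed from them, so no p-value is given, and the 95% intervals in brackets cover counting error only. Tags without molecular identifiers are not independent molecules. All 4 comparisons share the same day 1 libraries. In a mixed culture, a lower level can come from fewer cells of a type or from less RNA per cell, which cannot be told apart here.

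The 4 marker genes fall into an early pair and a late pair. Plxna2, a semaphorin receptor, and Efna1, an A-class ephrin, stood highest at day 4, whereas Nrp1, a co-receptor for secreted semaphorins and for VEGF, and the B-class ephrin Efnb2 stood highest at day 10 among the days with a value. The 250 bases before their annotated start sites are given to show the promoters of genes with these different courses. They are from RefSeq, build GRCm38.p6, read 5′ to 3′ along the gene's strand, while the tag tables refer to mm9. Capitals mark matches to any of 4 motifs, searched on both strands. The letters of the T-box half-site were GGTGTG. For the site of RBPJ they were TGGGAA. Binding sites of the GATA factors were searched as AGATAA, and the TATA box of core promoters as TATAAA.
Plxna2, chr1:194619579-194619828, plus strand: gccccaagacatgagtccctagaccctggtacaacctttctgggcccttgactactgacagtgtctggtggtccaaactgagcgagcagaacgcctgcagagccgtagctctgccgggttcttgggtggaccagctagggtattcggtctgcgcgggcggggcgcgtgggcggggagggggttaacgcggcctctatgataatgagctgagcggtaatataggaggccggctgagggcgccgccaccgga
Efna1, first start, chr3:89280952-89281201, minus strand: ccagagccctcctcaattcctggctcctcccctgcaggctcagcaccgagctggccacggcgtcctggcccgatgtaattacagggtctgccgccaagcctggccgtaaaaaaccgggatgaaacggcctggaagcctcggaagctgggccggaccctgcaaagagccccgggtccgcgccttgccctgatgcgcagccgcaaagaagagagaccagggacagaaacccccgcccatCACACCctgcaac
Efna1, second start, chr3:89279646-89279895, minus strand: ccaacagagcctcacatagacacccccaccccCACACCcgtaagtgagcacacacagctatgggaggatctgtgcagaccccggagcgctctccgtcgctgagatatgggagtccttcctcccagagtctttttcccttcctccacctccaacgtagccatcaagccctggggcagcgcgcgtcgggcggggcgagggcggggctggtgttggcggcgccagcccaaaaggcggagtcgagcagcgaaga
Efnb2, chr8:8661243-8661492, minus strand: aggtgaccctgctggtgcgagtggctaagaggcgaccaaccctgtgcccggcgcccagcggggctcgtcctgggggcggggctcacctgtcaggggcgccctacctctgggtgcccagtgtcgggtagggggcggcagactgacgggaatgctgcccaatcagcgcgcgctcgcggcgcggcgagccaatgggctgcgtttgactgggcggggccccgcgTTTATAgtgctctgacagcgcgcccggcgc
Nrp1, chr8:128358823-128359072, plus strand: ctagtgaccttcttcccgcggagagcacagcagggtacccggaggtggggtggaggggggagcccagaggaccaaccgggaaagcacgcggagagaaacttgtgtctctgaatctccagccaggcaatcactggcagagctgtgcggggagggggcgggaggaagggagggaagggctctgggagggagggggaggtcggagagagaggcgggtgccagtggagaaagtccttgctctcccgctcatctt
Both Efna1 windows held 1 match to the T-box half-site, and the Efnb2 window held 1 match to the TATA box. The Plxna2 and Nrp1 windows held none of these letters. The T-box half-site occurs in 21.4% of the 117 windows of members and in 16.3% of all 32851 such windows, and the TATA box in 5.13% of members' windows and 12.4% of all. The RBPJ site occurs in 20.5% of members' windows and 21.6% of all, and the GATA site in 4.27% of members' windows and 9.99% of all. A window was found for 91 of the 107 members. The median GC content was 64.8% in the members' windows and 52.4% in all windows, with a median of 17 against 6 CpG dinucleotides. All windows include those of genes that were listed at no day, and windows of listed genes alone were not set beside the members. Whether the differences in motifs and bases are particular to the members was therefore not tested. A match is a string of letters and not a shown binding site.

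Plxna2 (Entrez Gene 18845) stood at 1.44, 81.3, 24.2, 34.95 and 24.5 TPM at days 1, 4, 7, 10 and 14. It was 56.7-fold higher at day 4 than at day 1 (38.3 to 87.8) and 3.36-fold lower at day 7 than at day 4 (3.06 to 3.70). Efna1 (13636) had 0.80, 41.1, 24.1, 10.8 and 6.50 TPM at days 1, 4, 7, 10 and 14. It was 51.2-fold higher at day 4 than at day 1 (30.3 to 93.9), and from then on it was lower at each day than at the one before, ending 6.32-fold lower at day 14 than at day 4 (5.33 to 7.54). Both stayed above their day 1 level throughout.

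Nrp1 (18186) was without a tag at day 1, where the exact 95% upper limit of its level is 0.212 TPM. Folds of genes without a tag at day 1 use the level that 3 tags in all would give at day 1, 0.172 TPM, as a floor, and are written as "at least" in that sense, with no allowance for the counting error of the later day. Nrp1 had 10.7, 28.4, 61.7 and 49.4 TPM at days 4, 7, 10 and 14, at least 358-fold higher at day 10 than at day 1. Efnb2 (13642) was the single member that fell at one day and rose at others. Its level was 25.8, 11.9, 113 and 91.7 TPM at days 1, 4, 10 and 14, and it was not listed at day 7. It was 2.17-fold lower at day 4 (1.87 to 2.53) and 4.39-fold higher at day 10 (3.97 to 4.86) than at day 1. Between later days, Efnb2 was 7.73-fold higher at day 14 than at day 4 (6.82 to 8.79).

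**Figure D1:**
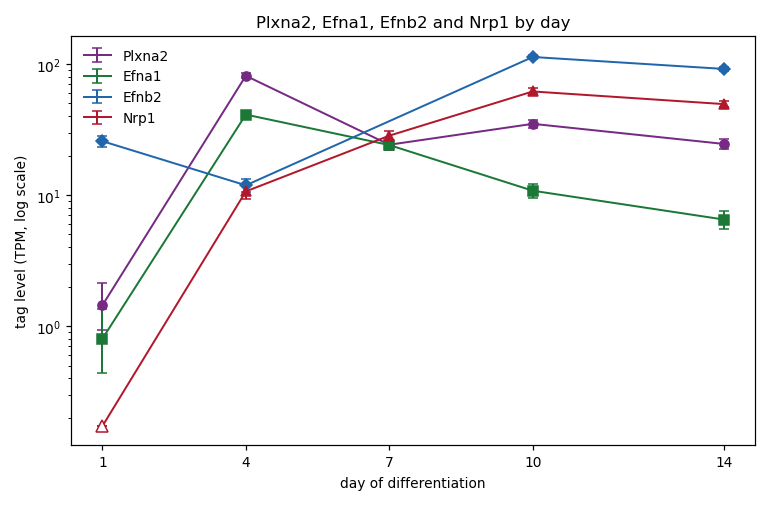
Tag level in TPM (log scale) of 4 marker genes against the day of differentiation, with 95% counting intervals. Plxna2 and Efna1 are highest at day 4 (81.3 and 41.1 TPM), Efnb2 and Nrp1 at day 10 (113 and 61.7 TPM). The open triangle marks 0 tags for Nrp1 at day 1, drawn at the 3-tag floor of 0.172 TPM, and the Efnb2 line passes day 7 without a value.

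Rises outnumbered falls at every later day, and the count of risen members was lowest at day 4 and highest at day 14. In the deposited table for day 4, 35 of the 107 members rose, 10 fell and 62 were not listed. Of all 4213 genes, 21.3% rose and 20.9% fell at that day. At day 7, 44 members rose and 8 fell, against 25.9% and 14.9% of all genes. At day 10, 53 rose and 10 fell, against 40.2% and 14.2%, and at day 14, 72 rose and 12 fell, against 49.8% and 17.2%. As shares of the 107 members, 32.7%, 41.1%, 49.5% and 67.3% rose at days 4, 7, 10 and 14. Among members listed at a day, 77.8%, 84.6%, 84.1% and 85.7% had risen at the 4 days in turn, and among all genes listed at that day the shares were 50.5%, 63.5%, 73.9% and 74.4%. The authors' deposited log2 ratios of the listed members had medians of 1.85, 1.88, 2.00 and 2.43, and those of all listed genes 1.02, 1.26, 1.49 and 1.59. With genes at 0 tags set to the floor, these medians stayed at the same values to 2 decimals.

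**Figure D2:**
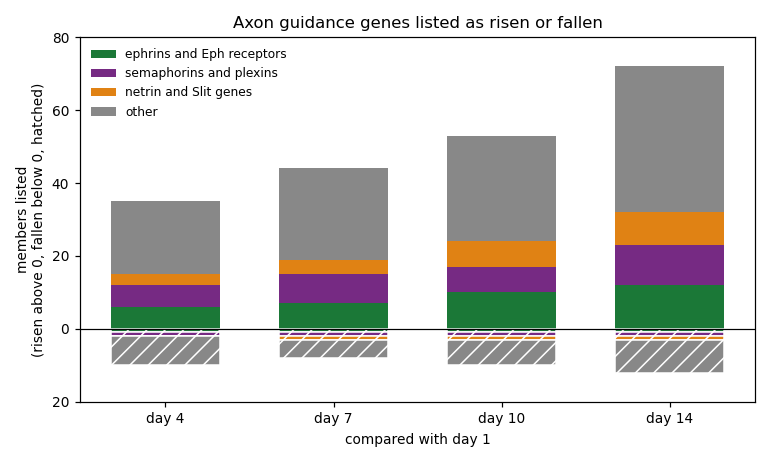
Number of axon guidance genes listed as risen (above 0) or fallen (below 0, hatched) at each later day compared with day 1, by class. Risen members number 35, 44, 53 and 72 at days 4, 7, 10 and 14, and fallen members 10, 8, 10 and 12.

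Over the whole course, 87 members were listed only as risen and 19 only as fallen, with Efnb2 in both directions. There were 21 members listed at all 4 later days, 27 at 3, 20 at 2 and 39 at 1. Of those 39, 23 were listed at day 14 and 10 at day 4. Among the 21 with a value at every day, 10 stood highest at day 14 and 6 at day 4, namely Plxna2, Efna1, the Slit ligand gene Slit3, the GTPase-activating protein gene Dlc1, the leucine-rich repeat gene Lrig1 and the LIM protein gene Pdlim4. The levels of 5 members, Efna5, Robo2, Sema6d, Nfatc4 and Lrrn1, were higher at each day than at the one before, although some of these steps, such as that of Efna5 from day 4 to day 7, lay within counting error. No tag was counted at day 1 for 12 members, among them the receptor genes Nrp1, Plxna4, Robo2, Unc5c, Unc5d, Epha3 and Epha5.

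All 5 ephrin ligand genes among the members rose at days 10 and 14, while 3 rose and Efnb2 fell at day 4. Of all 4213 genes, 40.2% rose at day 10 and 49.8% at day 14, and 21.3% rose and 20.9% fell at day 4. The family list used further below holds 8 ephrin genes, and 3 of them were listed at no day. Efna5 (13640), an A-class ephrin, had 7.29, 17.3, 17.6, 39.05 and 52.1 TPM at days 1, 4, 7, 10 and 14, and was 7.15-fold higher at day 14 than at day 1 (5.95 to 8.65). After day 7 it was higher at each day than at the one before, where Efna1, of the same class, was lower. Between day 4 and day 7 the Efna5 difference lay within counting error (fold 1.02, 0.884 to 1.17). Efnb1 (13641) had 2.01, 7.49, 18.0 and 25.0 TPM at days 1, 7, 10 and 14, 12.5-fold higher at day 14 than at day 1 (8.86 to 18.1). Efnb3 (13643), a midline barrier for axons in the mouse spinal cord, had 2.35, 14.1, 13.9, 17.2 and 23.0 TPM over the 5 days. It was 9.79-fold higher at day 14 than at day 1 (7.12 to 13.8).

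Of the 9 Eph receptor members, 3 rose at days 4 and 7, 5 at day 10 and 7 at day 14, and Epha1 was the one that fell. The share of all genes that rose also grew, with 21.3%, 25.9%, 40.2% and 49.8% at days 4, 7, 10 and 14. Epha3 and Epha5 are members through their day 14 listing alone, and Ephb4 through day 4 alone. Epha4 (13838), which binds ephrins of both classes, had 8.04, 33.2, 20.04, 37.4 and 47.7 TPM at days 1, 4, 7, 10 and 14. It was 5.93-fold higher at day 14 than at day 1 (4.97 to 7.12), with a dip at day 7, 1.66-fold lower than at day 4 (1.47 to 1.86). Epha7 (13841) had 3.56, 15.3, 24.1 and 39.8 TPM at days 1, 4, 10 and 14, 11.2-fold higher at day 14 (8.64 to 14.7). Epha3 and Epha5 had 3.52 and 2.35 TPM at day 14, at least 20.5-fold and 13.6-fold higher than at day 1, where both were without a tag.

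Of the B-class receptors, Ephb1, Ephb2 and Ephb3 stood highest at day 14. Ephb1 (270190) had 0.80, 6.30, 4.06 and 6.84 TPM at days 1, 7, 10 and 14, 8.51-fold higher at day 14 (4.93 to 15.9). Ephb2 (13844) had 15.9 TPM at day 14 against 3.90 TPM at day 1, 4.06-fold higher (3.13 to 5.34). Ephb3 (13845) had 6.37, 13.3, 18.6 and 25.6 TPM at days 1, 7, 10 and 14, 4.02-fold higher at day 14 (3.28 to 4.97). Ephb4 (13846), the venous receptor for the arterial ligand Efnb2, was listed at day 4 only, with 88.6 TPM against 39.7 TPM at day 1, 2.23-fold higher (2.05 to 2.44). Its rise stood at the day at which Efnb2 was lower than at day 1. At that day 0 of 12 endothelial markers were listed, and a link between Ephb4 and Efnb2 was not tested. Epha1 (13835) had 27.4, 13.5, 5.11 and 3.10 TPM at days 1, 7, 10 and 14, and was 8.84-fold lower at day 14 (6.91 to 11.4).

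The semaphorin genes differed in the days at which they were listed, and Sema6d was listed at all 4. Sema6a, Sema4c and Sema7a rose at day 4 and were not listed at days 10 and 14. Sema6a (20358), a membrane-bound ligand of Plxna2 and Plxna4, had 99.3 TPM at day 4 and 109 at day 7, against 36.6 at day 1, 2.98-fold higher at day 7 (2.74 to 3.26). Sema4c (20353), a membrane-bound semaphorin, had 22.6 TPM at day 4 and 24.6 at day 7, against 11.1 at day 1. Sema7a (20361), which is held by a lipid anchor, had 7.51 TPM at day 4 against 0.86 TPM at day 1, 8.72-fold higher (5.14 to 15.9).

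The 3 secreted semaphorins of class 3 were listed as risen at day 7 or later. Sema3c (20348), needed for the septation of the cardiac outflow tract in mice, had 1.43, 9.94, 62.5 and 122.5 TPM at days 1, 7, 10 and 14. Its level at day 14 was the highest that a ligand or receptor member reached at any listed day, and was 85.4-fold higher than at day 1 (57.7 to 132) and 1.96-fold higher than at day 10 (1.84 to 2.09). Sema3f (20350), a ligand read through the co-receptor Nrp2, had 6.54, 16.1, 26.2 and 26.7 TPM at days 1, 7, 10 and 14, 4.08-fold higher at day 14 than at day 1 (3.34 to 5.03). Sema3d (108151) had 8.35 TPM at day 14 against 0.75 TPM at day 1, 11.2-fold higher (6.39 to 21.4).

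Among membrane-bound semaphorins that rose at day 14, Sema6d (214968) had 2 tags at day 1 and rose at each later day. Its levels were 0.12, 5.42, 6.90, 22.45 and 25.4 TPM over the 5 days, and its ratio of day 14 over day 1 was 221.4 (61.0 to 1833). Sema5a (20356), which carries thrombospondin repeats, had 0.97, 4.45, 7.08 and 16.1 TPM at days 1, 7, 10 and 14, 16.5-fold higher at day 14 (10.1 to 28.6). Sema6c (20360) had 16.0 TPM at day 14 against 4.48 TPM at day 1, 3.58-fold higher (2.80 to 4.63). Both falls in the family were of membrane-bound members as well. Sema6b (20359) had 5.11, 1.20, 0.87 and 0.88 TPM at days 1, 7, 10 and 14, 5.80-fold lower at day 14 (3.57 to 9.83). Sema4d (20354), a ligand of Plxnb1, had 4.09 TPM at day 4 against 9.93 TPM at day 1, 2.42-fold lower (1.88 to 3.15).

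Plexin genes other than Plxna2 were listed at day 14, and Plxna4 at day 10 as well. Plxna4 (243743) was without a tag at day 1 and had 4.28 TPM at day 10 and 15.5 at day 14, at least 89.9-fold higher at day 14. Plxnb1 (235611) had 55.7 TPM at day 14 against 24.0 TPM at day 1, 2.32-fold higher (2.08 to 2.60). Plxna3 (18846) had 20.8 TPM at day 14 against 9.99 TPM at day 1, 2.08-fold higher (1.75 to 2.49). All 5 plexin and neuropilin members therefore rose at day 14, against 2 at days 4 and 7 and 3 at day 10. Plxna3 and Plxnb1, however, are members through their day 14 listing alone, and 49.8% of all genes rose at day 14.

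Slit2 and Slit3, genes for ligands of Robo receptors, rose from day 4 on, and the Robo receptor genes stood highest at day 14. Slit3 (20564) had 3.67, 50.2, 27.4, 23.4 and 26.2 TPM at days 1, 4, 7, 10 and 14, 13.7-fold higher at day 4 than at day 1 (10.6 to 17.8). Slit2 (20563) had 1.26, 19.2, 29.8, 28.1 and 35.5 TPM over the same days, 28.1-fold higher at day 14 than at day 1 (18.5 to 45.1). Slit2 was thus higher and Slit3 lower at day 14 than at day 4, by 1.85-fold (1.65 to 2.08) and 1.91-fold (1.73 to 2.11). Slit1 (20562), listed at days 10 and 14, 4.28 and 3.36 TPM there, against 0.40 TPM at day 1. Robo1 (19876) had 6.83 TPM at day 1, 28.05 at day 10 and 36.5 at day 14, 5.35-fold higher at day 14 (4.41 to 6.53). Robo2 (268902) was without a tag at day 1 and had 4.05, 11.1, 14.7 and 18.5 TPM at days 4, 7, 10 and 14, at least 107-fold higher at day 14.

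The repulsive netrin receptors of the Unc5 family moved in both directions. Unc5c (22253) was without a tag at day 1 and had 3.81, 19.75 and 41.1 TPM at days 7, 10 and 14, at least 239-fold higher at day 14. Unc5d (210801) was listed at day 14 only, with 4.07 TPM, at least 23.6-fold above day 1, where it was without a tag. Unc5a (107448) fell, with 6.26, 0.30, 0.57 and 0.92 TPM at days 1, 7, 10 and 14, and was 20.9-fold lower at day 7 than at day 1 (9.79 to 53.1). Neither day 10 against day 7 nor day 14 against day 10 differed beyond counting error for Unc5a. The ligand gene Ntn3 (18209) had 7.25 TPM at day 10, against 1.09 TPM at day 1, 6.65-fold higher (4.13 to 11.3), and was 1.65-fold higher at day 14 than at day 10 (1.36 to 2.02). Ntng1 (80883), a lipid-anchored relative of the netrins, had 3.82 TPM at day 14 and no tag at day 1, at least 22.2-fold higher.

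**Figure D3:**
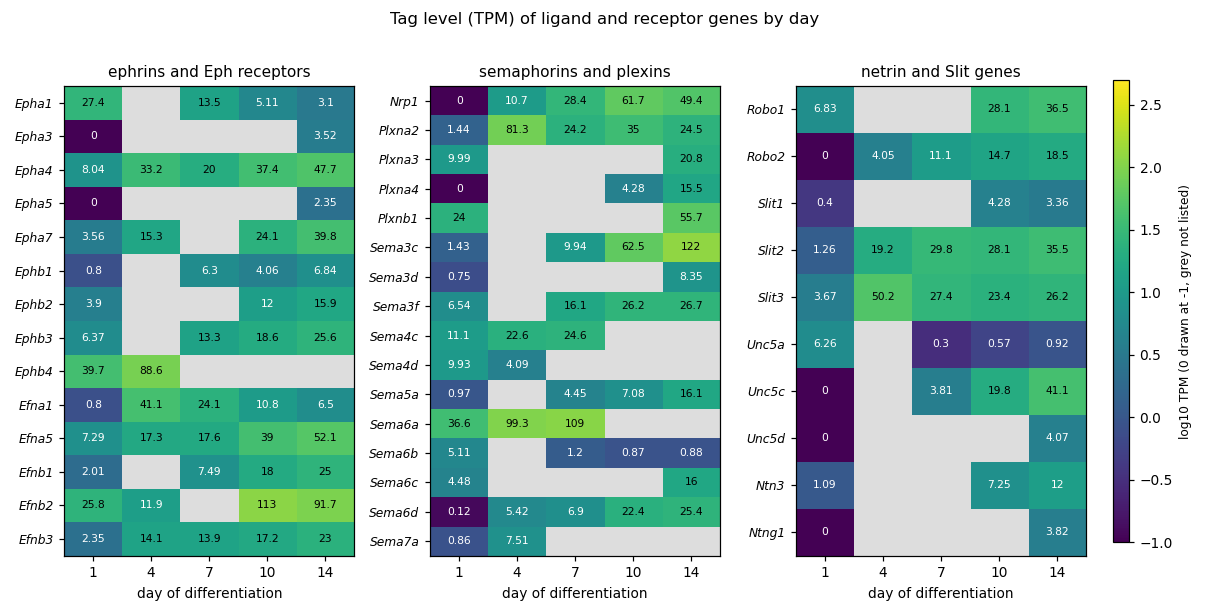
Tag level in TPM of the 40 ligand and receptor members (rows) at days 1, 4, 7, 10 and 14 (columns), coloured on a log10 scale, with grey where the table of the day does not list the gene. Efna1, Plxna2 and Slit3 are brightest at day 4, and Sema3c and Efnb2 reach 122.5 TPM at day 14 and 113 TPM at day 10.

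Later days were also set directly against each other. The ratios themselves do not use the day 1 libraries. They need a listing at both days, however, and each listing was made against day 1, so day 1 still decides which members are compared. Of 29 members listed at days 4 and 14, 18 were higher at day 14, 8 were lower, and for 3 the counting interval included no change. After Efnb2, the largest ratios of day 14 over day 4 were those of Sema6d (4.69, 3.87 to 5.73), Nrp1 (4.63, 4.04 to 5.33) and Robo2 (4.56, 3.64 to 5.75), and the smallest were those of Efna1 and Plxna2. From day 4 to day 7, 10 of 28 members were higher at day 7 and 10 lower. From day 7 to day 10, 24 of 42 were higher at day 10 and 10 lower. From day 10 to day 14, 29 of 59 were higher at day 14 and 10 lower. No such counts between later days were made over all genes, so these describe the members only. Among ligand and receptor genes listed at both days, the largest step between neighbouring later days was that of Sema3c. It was 6.29-fold higher at day 10 than at day 7 (5.47 to 7.26), followed by Unc5c with 5.18-fold (4.12 to 6.58). Steps from day 1 to day 4 are not in this ranking.

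**Figure D4:**
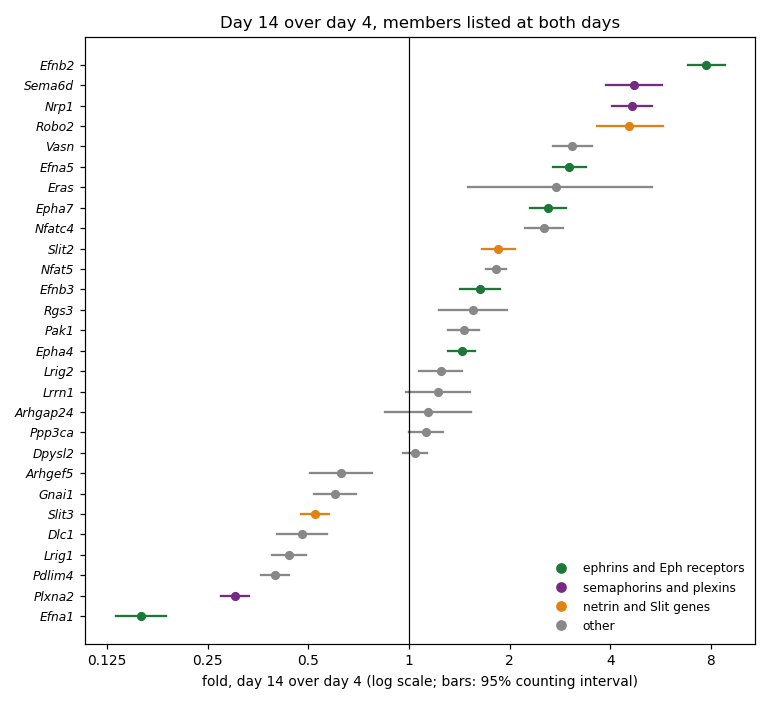
Ratio of the tag level at day 14 over day 4 (log scale) for 28 of the 29 members listed at both days, with 95% counting intervals and coloured by class. The ratio is 7.73 for Efnb2 at the top and 0.158 for Efna1 at the bottom, and 17 of the plotted intervals lie above 1.

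Among the 67 other members, 20 rose and 8 fell at day 4, 25 rose and 5 fell at day 7, 29 rose and 7 fell at day 10, and 40 rose and 9 fell at day 14. Of these, 19 encode surface or secreted proteins with leucine-rich repeats or immunoglobulin domains. In that group 6, 9, 9 and 14 rose at the 4 later days, and 0, 1, 3 and 3 fell. Beside both sets of counts, 21.3%, 25.9%, 40.2% and 49.8% of all 4213 genes rose at these days. The shares that fell were 20.9%, 14.9%, 14.2% and 17.2%. Flrt3 (71436), a ligand for Unc5 receptors, had 4.30, 25.4, 62.1 and 71.0 TPM at days 1, 7, 10 and 14, 16.5-fold higher at day 14 (13.1 to 21.1). Vasn (246154), whose product binds TGF-β, had 3.16, 12.1, 10.6, 18.6 and 37.2 TPM over the 5 days, 11.8-fold higher at day 14 than at day 1 (8.97 to 15.8). Lrig1 (16206), an inhibitor of receptor tyrosine kinases, had 8.27, 40.5, 35.6, 19.75 and 17.75 TPM, 4.31-fold higher at day 7 than at day 1 (3.61 to 5.18). Its relative Lrig2 had 5.45, 14.0, 15.85, 20.1 and 17.4 TPM and stood highest at day 10.

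Kirrel, an adhesion molecule of the nephrin family, had 8.84, 31.65, 42.3 and 48.2 TPM at days 1, 7, 10 and 14, 5.46-fold higher at day 14 (4.61 to 6.50). Igdcc3 and Prtg encode immunoglobulin proteins related to the netrin receptor DCC, and they moved in opposite directions. Igdcc3 had 24.6, 67.75, 60.9 and 87.2 TPM at days 1, 7, 10 and 14, 3.54-fold higher at day 14 (3.19 to 3.94). Prtg, with the highest day 1 level of any member, had 171.5 TPM at day 10 and 179 at day 14, against 430 TPM at day 1, 2.40-fold lower at day 14 (2.31 to 2.49). L1cam, an adhesion molecule of axons, was 2.61-fold lower at day 14 (2.09 to 3.28), with 5.08 TPM against 13.3 TPM at day 1. Lrrc3b was 9.76-fold lower at day 7 than at day 1 (5.56 to 18.5), with 0.60 against 5.85 TPM.

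The remaining surface proteins described by value rose. Igsf9 was 3.23-fold higher at day 10 than at day 1 (2.74 to 3.83), Lrfn4 2.47-fold higher at day 7 (2.19 to 2.79) and Lrrn1 5.55-fold higher at day 14 (3.65 to 8.80). Islr, Slitrk6 and Fstl4 had no tag at day 1. Islr reached 9.73 TPM and Slitrk6 2.22 TPM at day 14, and Fstl4 2.60 TPM at day 4. Lgi2 and Lingo1, genes active in the nervous system, had 3.48 and 6.59 TPM at day 14, against 0.46 and 1.03 TPM at day 1.

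Of 20 genes for small GTPase signalling and G protein regulators, 6, 8, 6 and 10 rose and 5, 3, 2 and 2 fell at days 4, 7, 10 and 14. Among all genes, 21.3%, 25.9%, 40.2% and 49.8% rose and 20.9%, 14.9%, 14.2% and 17.2% fell. The risen count of this group was thus below the share of all genes at day 10 and near it at day 14. Eras (353283), the Ras gene of embryonic stem cells, had 18.5, 0.64, 0.39, 1.09 and 1.76 TPM over the 5 days, 48.1-fold lower at day 7 than at day 1 (25.0 to 106). The Arhgap genes, Dlc1 and Stard8, which encode GTPase-activating proteins, rose, apart from Arhgap22, which fell. Arhgap24 had 0.40, 3.80, 8.09, 6.77 and 4.32 TPM, and Dlc1 2.18, 18.3, 7.37, 8.17 and 8.77 TPM over the 5 days. The related gene Stard8 was 4.02-fold higher at day 7 than at day 1 (3.23 to 5.04), Arhgap36 6.77-fold higher at day 7 (3.81 to 13.1) and Arhgap20 6.30-fold higher at day 14 (3.54 to 12.2).

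Of the exchange factors, which activate small GTPases, Arhgef12 acts downstream of B-class plexins. It had 47.6 TPM at day 14 against 20.95 TPM at day 1, and Arhgef5 had 9.90 TPM at day 4 against 1.61 TPM at day 1. Rac3, a small GTPase related to Rac1, had 8.15, 22.1, 26.9 and 27.9 TPM at days 1, 7, 10 and 14. Rgs3, a regulator of G protein signalling that binds B-class ephrins in the mouse, was 11.4-fold higher at day 10 than at day 1 (6.77 to 20.7). Rgs16 was 7.82-fold higher at day 7 (5.52 to 11.4), Rgs2 had 3.36 TPM at day 14 and no tag at day 1, and Rgs10 was 3.21-fold lower at day 7 than at day 1 (2.55 to 4.06). The G protein subunit gene Gnai1 was 3.97-fold higher at day 4 than at day 1 (3.18 to 4.99).

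Kinase, phosphatase and NFAT genes numbered 13, of which 5, 5, 8 and 7 rose and 3, 0, 1 and 1 fell at the 4 later days. Shares of all genes were 21.3%, 25.9%, 40.2% and 49.8% risen and 20.9%, 14.9%, 14.2% and 17.2% fallen. Calcineurin and the NFAT factors it activates were listed as higher. The calcineurin subunit gene Ppp3ca had 6.83, 24.1, 17.6, 20.9 and 27.1 TPM over the 5 days. Nfatc4 had 5.68, 13.65, 24.9, 29.0 and 34.5 TPM, 6.08-fold higher at day 14 than at day 1 (4.93 to 7.56). Nfatc1 (18018), a factor of the endocardium and heart valves, was listed at days 4 and 7 only, with 11.3 and 6.81 TPM, against 0.52 at day 1, 22.0-fold higher at day 4 (11.4 to 48.6). Nfat5, which does not depend on calcineurin, had 96.99 TPM at day 14 against 23.65 TPM at day 1.

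Kinases that reach the actin filament moved in opposite directions. Pak1, an effector of Rac, had 24.2 TPM at day 4, against 78.5 TPM at day 1, 3.24-fold lower (2.94 to 3.58). Limk2, which phosphorylates cofilin, had 30.1, 63.0, 77.1 and 63.7 TPM at days 1, 4, 7 and 10, while Limk1 fell at day 4. Cfl2, the cofilin of muscle, had 22.7, 58.9 and 73.0 TPM at days 1, 10 and 14, 3.22-fold higher at day 14 (2.88 to 3.60). The Src-family kinase gene Fyn was 2.72-fold higher at day 14 (2.36 to 3.14) and the HGF receptor gene Met 6.16-fold higher at day 10 (3.90 to 10.2). The phosphatase inhibitor gene Ppp1r14c had 21.4 TPM at day 14 against 2.70 TPM at day 1.

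Collapsin response mediator proteins, which transmit semaphorin signals to microtubules, went both ways. Dpysl2 had 21.75, 47.3, 58.5 and 49.3 TPM at days 1, 4, 10 and 14. Crmp1 was 2.59-fold lower at day 14 than at day 1 (2.26 to 2.96), Dpysl5 also fell at day 14, and Dpysl3 had 2.27 TPM at day 14 with 2 tags, or 0.12 TPM, at day 1. Pdlim4, which binds actin through alpha-actinin, had 5.34, 60.9, 40.6, 24.2 and 24.2 TPM over the 5 days, 11.4-fold higher at day 4 than at day 1 (9.24 to 14.2). Pdlim3 and Epb4.9 were listed at day 7 only, 9.29-fold (4.72 to 20.8) and 4.56-fold (3.19 to 6.68) higher than at day 1. The microtubule end-binding gene Mapre3 was 3.73-fold higher at day 14 (2.93 to 4.78).

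Azi1 was 2.40-fold higher at day 10 than at day 1 (2.00 to 2.88), Samd5 had 4.28 TPM at day 10 against 0.12 TPM at day 1, and Tm4sf5 had 14.7 TPM at day 14 against 0.58 TPM at day 1. The last 15 members were listed at 1 day each with an absolute deposited log2 ratio under 2. Of these, 8 rose by 2.06-fold to 3.65-fold, namely Abl1, Ablim1, Amigo2, Cdk5, Lrrc24, Net1, Rgs17 and Smc6. The 7 that fell by 2.06-fold to 3.13-fold were 1110012J17Rik, Arhgap22, Cib1, Dpysl5, Hras1, Itsn2 and Limk1.

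**Figure D5:**
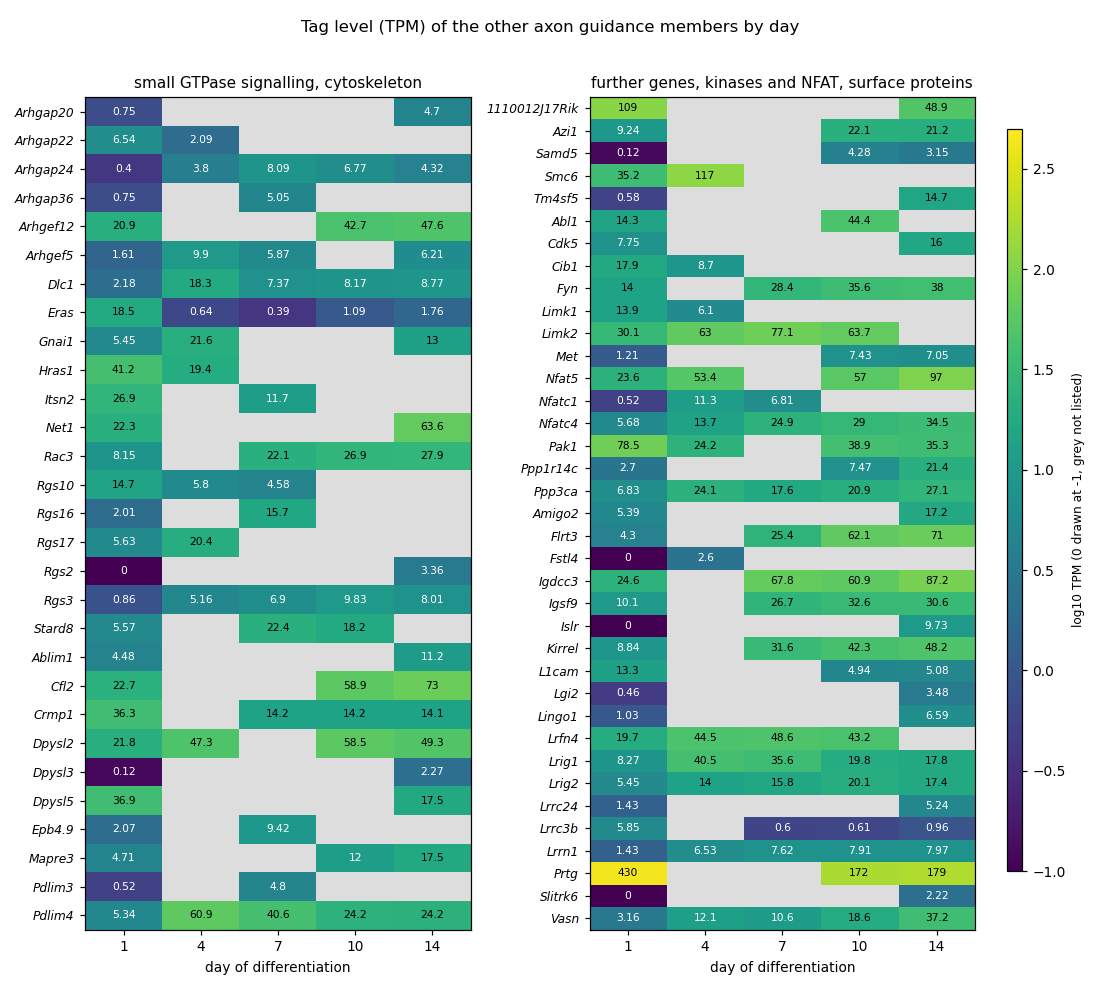
Tag level in TPM of 66 of the 67 other members (rows) at days 1, 4, 7, 10 and 14 (columns), coloured on a log10 scale, with grey where the table of the day does not list the gene. Prtg is brightest at day 1 (430 TPM), Pdlim4 at day 4 (60.9 TPM), and Eras darkens after day 1 (18.5 TPM).

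A list of 133 genes of these families and of the axon guidance map, written from general knowledge, gives the wider pathway. Of these, 68 were listed at 1 or more days and 65 at none. On that list 24 genes rose and 7 fell at day 4, 30 rose and 3 fell at day 7, 41 rose and 6 fell at day 10, and 50 rose and 7 fell at day 14. These counts all fall among the 68 listed, the part that can be set beside the 4213 genes. Of those 4213, 21.3%, 25.9%, 40.2% and 49.8% rose and 20.9%, 14.9%, 14.2% and 17.2% fell at the 4 days. The list holds 62 of the members, and 45 members are outside it and rest on the deposited annotation alone. It also holds 6 listed genes that are not members. The co-receptor gene Nrp2 had 0.69, 8.32, 56.7, 40.5 and 24.6 TPM over the 5 days, 82.4-fold higher at day 7 than at day 1 (47.0 to 159.8). Neo1, a netrin receptor of the DCC family, had 127 TPM at day 10 against 20.8 TPM at day 1, and Plxnd1, a receptor of vessels, had 27.9 against 3.16 TPM. Robo4, also of vessels, had 6.86 TPM at day 10 against 1.38 TPM at day 1. The chemokine gene Cxcl12 had 2.77 TPM at day 4 and 42.0 at day 14, against 9.99 at day 1. Like Efnb2, it thus fell at day 4 and rose at day 14. Itgb1 had 319 TPM at day 10 against 130.3 TPM at day 1.

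Markers of neurons did not rise with the axon guidance genes at days 4 and 7. Of 12 neuronal markers, 0 rose and 4 fell at day 4, 0 rose and 5 fell at day 7, 1 rose and 5 fell at day 10, and 3 rose and 3 fell at day 14. Of all 4213 genes, 21.3%, 25.9%, 40.2% and 49.8% rose and 20.9%, 14.9%, 14.2% and 17.2% fell. Those shares are of genes listed at any day, as were 8 of the 12 markers. The summed level of the neuronal markers listed was 72.0, 29.25, 28.75 and 70.7 TPM at days 4, 7, 10 and 14, against 203, 226, 228 and 189.5 TPM of the same genes at day 1. Stmn2 had 149, 56.5, 12.03, 11.3 and 32.05 TPM over the 5 days. Gap43 and Mtap2 reached 14.3 and 13.05 TPM at day 14, and Dcx, which had no tag at day 1, 2.98 TPM. Their part in the levels of the members was not tested.

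Markers of other cell types were counted in the same way, and their lists did not share a single course. Beside them, the risen shares of all genes were 21.3%, 25.9%, 40.2% and 49.8%, and the fallen shares 20.9%, 14.9%, 14.2% and 17.2%. These are shares of genes listed at any day, whereas each marker list also holds genes listed at none. Of 10 paraxial mesoderm markers, 4 rose at days 4 and 7, 2 at day 10 and 3 at day 14. Those listed summed to 792, 199, 22.5 and 25.3 TPM, against 8.55, 8.55, 2.47 and 5.51 TPM at day 1. The genes listed changed between days, and Tbx6 alone had 669 TPM at day 4. None of these markers fell, and Msgn1 and Meox1, where listed, had no tag at day 1. Of 12 endothelial markers, 0 were listed at day 4, 2 rose and 1 fell at day 7, 7 rose and 1 fell at day 10, and 5 rose and 1 fell at day 14. Those listed summed to 12.1, 115.85 and 37.45 TPM at days 7, 10 and 14, against 10.8, 30.65 and 10.9 TPM at day 1, and Cdh5, Tie1, Emcn, Pecam1 and Tek had no tag there. Of 9 neural crest markers, 3, 5, 6 and 7 rose at the 4 later days and Foxd3 fell at each, and those listed summed to 48.8, 124, 152 and 134 TPM, against 12.9, 13.4, 13.4 and 13.7 TPM at day 1. Of 12 cardiomyocyte markers, 1, 3, 6 and 9 rose, with 19.45, 11.5, 131 and 576 TPM at the 4 later days, against 1.49, 0, 0 and 1.61 TPM of the same genes at day 1. Of 8 smooth muscle markers, 1, 3, 2 and 2 rose and 1, 0, 0 and 0 fell, and of 11 neural progenitor markers, 1, 1, 1 and 3 rose and 3, 1, 1 and 1 fell. Of 12 markers of undifferentiated cells, 0 rose at any day and 5, 6, 6 and 6 fell. The part of these cell types in the levels of the members was not tested.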

How the data were processed

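Gene expression in P19CL6 cells was measured by tag profiling in 19 libraries, grouped by the day in their titles, 3 for day 1 and 4 for each of the later days. The kit was Illumina's for tag profiling, in protocol version 2.1B per the labels' protocols. The genome build was mm9, per the submitters' processing notes. The aligner is not given in the sources used here. Nor is the test.

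The authors deposited 4 tables, each setting a later day against day 1. Per the file headers they hold a raw intensity, TPM and a log2 ratio for each gene. The deposited raw intensities are the authors' mean tag counts over the libraries of a day, since the day 1 values times 3 and the later values times 4 are whole within 0.035 for 100% of genes. The deposited TPM are mean tag counts per 1000000 tags, with 0.01 in place of 0, which was read as 0. The authors' log2 ratio is that of the TPM, later day over day 1. Per the file headers, further score columns are a P-Value and an FDR. They were used for no test, since the FDR is above 1 for 56.5, 60.2, 60.1 and 55.9% of the genes in the 4 tables, in day order. The authors filtered the tables. As 0 columns hold single libraries, groups of replicates could not be tested.

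Members were found by the authors' Pathway annotation, and the rule found 107 genes. The values of 1 member are not reported here. Members with no symbol, 3 in number, were named by RefSeq accession. Folds are ratios of the recovered tag sums over the tag totals that count and TPM imply, with exact Clopper-Pearson intervals at the 95% level, and levels have exact Poisson intervals. Both cover counting error only. A gene at 0 tags was set to a floor of 3 tags over the libraries of the day. Described with values were all ligand and receptor members and, among the other members, those listed at 2 or more days or with an absolute deposited log2 ratio of at least 2. The members, roles and lists were chosen with earlier results of these data known. Alternatives were an absolute log2 ratio of at least 2, the median abundance as a limit, TPM + 1, and genes of the extracellular matrix pathway kept. Versions were matplotlib 3.10.9, pandas 2.3.3, scipy 1.17.1, numpy 2.4.6 and Python 3.11.15. The intervals were tested on data simulated with counting error alone, which is what they assume. That test checks the computation and cannot speak to the spread between libraries.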

Additional observations from a re-analysis of the deposited data

How the results depend on the processing

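No paired analysis was possible because the deposited values are means over the libraries of a day, and for the same reason no replicate could be left out. Requiring an absolute deposited log2 ratio of at least 2 left 20, 25 and 32 risen members at days 4, 7 and 10 and 1, 4, 5 and 5 fallen members at days 4, 7, 10 and 14. Keeping members no less abundant than the median of each table left 13, 16, 25 and 30 risen and 4, 3, 5 and 7 fallen at the 4 days. Both limits remove members by construction, and rises still outnumbered falls at each day under both. The counts on TPM + 1, those with Itgb1 kept, and the 49 risen at day 14 with a log2 ratio of at least 2 stayed within 1.5 times the counts given. The direction of the 244 member and day values was set by the authors' deposited log2 ratio, and TPM + 1 keeps its sign. By construction, neither could reverse a direction. On TPM + 1, 86 of these values lay outside the counting interval, or had 0 tags at day 1. For the authors' ratio these were 21 values, all with 0 tags at day 1, which that ratio counts as 0.01 TPM. Depth limits the lowest genes, since listed members had a mean of at least 13.25 tags at the higher day.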
